A study of Mus musculus with 9 samples.

Results

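A group of 10 genes of ADP-ribosylation and NAD metabolism was followed in differentiated cultures of C2C12, an immortal mouse muscle line whose myoblasts form multinucleated myotubes when serum is withdrawn. They were chosen by name from the pathway, as 4 poly(ADP-ribose) polymerases (Parp1, Parp2, Parp3 and Parp4), 4 enzymes of NAD synthesis (Nampt, Nmnat1, Nmnat3 and Nmrk2) and 2 sirtuins (Sirt1 and Sirt3). They are 10 of the 52780 genes in the count table, and all 10 passed the filter on low counts that left 19545 genes for testing. Gene positions are those of GENCODE M21 on GRCm38. The 9 samples were C2C12 cells without a genetic change, at day 4 of differentiation, in 3 conditions of 3 samples each. The si Ctrl samples, which the labels call wild type and for which the study lists a scrambled control siRNA, are the control of both knockdowns. The si mH2A1.1 and si mH2A1.2 samples had received siRNA against the macroH2A1.1 or the macroH2A1.2 splice isoform of the H2afy gene, at 10 nM, after seeding, at the change to differentiation medium and 2 days after that change. Both knockdowns were thus transient and were made in a single cell line. P-values measure the spread between the 3 samples of the same condition, which the study calls independent biological replicates. That spread was estimated for each gene from all 9 samples together, so each comparison also draws on the condition outside it.

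PARP enzymes cleave NAD and transfer its ADP-ribose part to proteins and nucleic acids, which releases nicotinamide. Nicotinamide is recycled to NAD by NAMPT and the NMNAT enzymes, and nicotinamide riboside enters the same route through the NMRK kinases. Sirtuins also consume NAD, as deacylases, and the macrodomain of macroH2A1.1, but not that of macroH2A1.2, binds ADP-ribose, which is the reason why this gene group is of interest in a comparison of the isoforms.

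The samples held between 36924252 and 42223108 counts each. Of the myotube genes, 19 of 19 were expressed above the filter, and the myogenic factor Myog lay between 337 and 745 CPM (counts per 1000000 counts of the library) over the 9 samples. H2afy, whose counts sum both isoforms, was 59.9 ± 3.18 CPM (SD, n = 3) in si Ctrl, 33.3 ± 4.87 in si mH2A1.1 and 45.7 ± 2.2 in si mH2A1.2. It fell with si mH2A1.1 by 0.85 on the log2 scale (SE 0.11, adjusted p = 0.00331), and its log2 fold change in si mH2A1.2 was -0.39 (SE 0.11, adjusted p = 0.108), with the samples of both conditions below every si Ctrl sample. Because the gene total does not separate the isoforms, it does not show which isoform was depleted.

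Few of these genes passed the test for a difference with the knockdown of either isoform. With si mH2A1.1, 1 of 10 passed the test (edgeR, Benjamini-Hochberg adjusted p of 0.05 or less), which was Sirt3, lower in the knockdown. Among all tested genes 2171 passed in this comparison, which is 11.1%, or 6.18% higher and 4.93% lower. With si mH2A1.2, 0 of 10 passed in edgeR, DESeq2 and limma-voom, and 1 of 10 (Nmnat1) had an unadjusted p under 0.05, against 460 of all tested genes that passed (2.35%, with 1.37% higher and 0.982% lower). Same-numbered samples of si mH2A1.2 and si Ctrl deviated together, and more weakly so did those of the other comparisons. With the replicate number as a block, 1005 genes (5.14%) and again 0 of the 10 passed with si mH2A1.2. The block gave 1 of 10 with si mH2A1.1 (4065 of all genes) and 3 of 10 between the knockdowns (5674). Between the knockdowns without the block, 2 of 10 passed, Sirt3 lower and Nmnat1 higher in si mH2A1.1 than in si mH2A1.2, and the background was 22.5% (12.0% higher and 10.5% lower). With 10 genes, these counts stood near those of all tested genes.

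**Figure D1:**
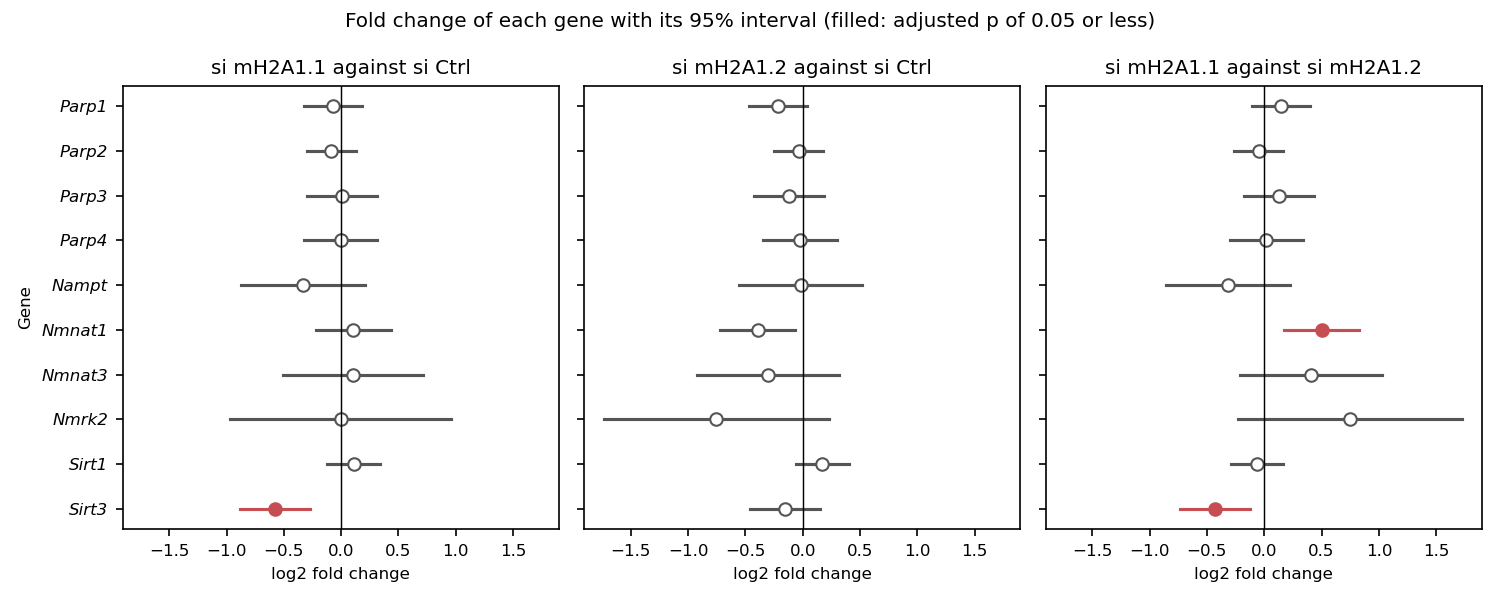
Log2 fold change (horizontal axis) of each of the 10 genes (vertical axis) in the 3 comparisons, 1 panel each, where the point is the edgeR estimate and the line its 95% interval. Filled red points passed an adjusted p of 0.05 or less, which are Sirt3 in the first panel and Nmnat1 and Sirt3 in the third, and the widest intervals are those of Nmrk2.

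The median absolute log2 fold change of the 10 genes was 0.095 in si mH2A1.1, 0.16 in si mH2A1.2 and 0.23 between the knockdowns. Over all tested genes it was 0.28, 0.20 and 0.31. All tested genes include many with few counts, and the 10 genes were not matched to them by level, so these medians are not a like comparison. The signed medians were -0.0044, -0.14 and 0.074, beside -0.0091, -0.000083 and -0.0091 for all tested genes. The largest single value was that of Nmrk2 with si mH2A1.2, a log2 fold change of -0.75, which did not pass.

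Compared per length, the PARP genes and Nampt were the most abundant of the group. In si Ctrl, Parp3 was at 23.8 ± 3.11 CPM per kb of merged exon (SD, n = 3), Parp1 at 17.3 ± 1.65, Nampt at 14.7 ± 1.79, Parp4 at 10.7 ± 1.58 and Parp2 at 9.39 ± 0.476. Nmrk2 followed at 7.45 ± 3.17, Nmnat1 at 5.22 ± 0.618, Sirt1 at 2.93 ± 0.21, Sirt3 at 2.45 ± 0.368 and Nmnat3 at 0.314 ± 0.0915. The si Ctrl samples overlapped between the neighbours Parp4 and Parp2, Parp2 and Nmrk2, Nmrk2 and Nmnat1, and Sirt1 and Sirt3, so that the order within these pairs is not larger than their spread. The other neighbours in this order did not overlap. Merged exon length counts every annotated isoform, and the length of the isoforms in use was not measured.

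**Figure D2:**
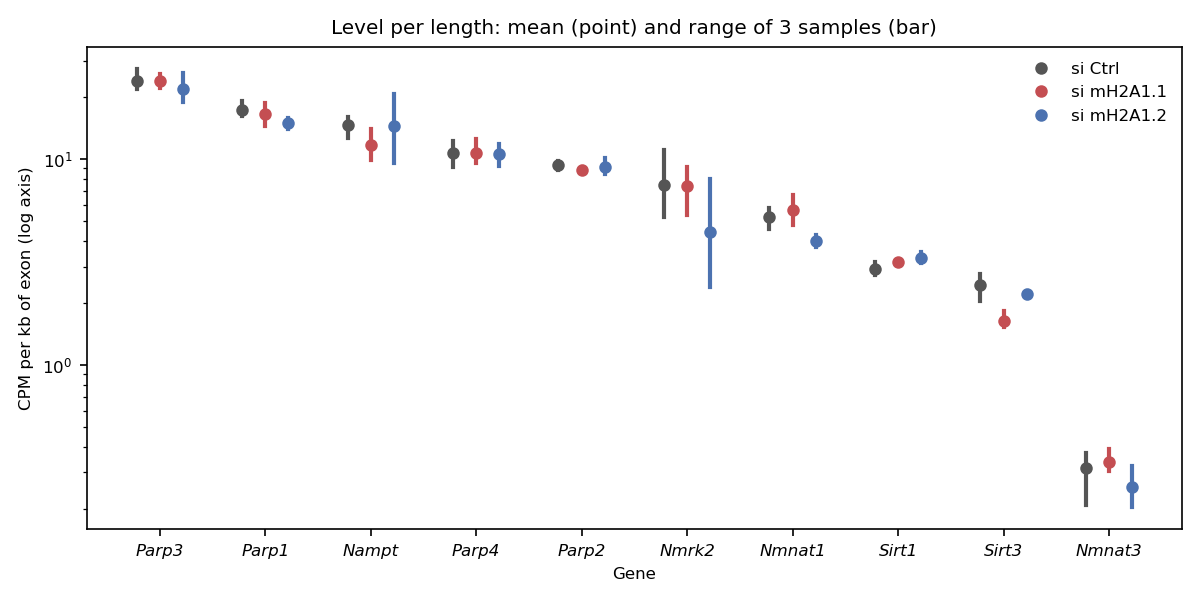
Level of each gene in CPM per kb of merged exon (vertical log axis), ordered along the horizontal axis by its si Ctrl mean, with the mean of 3 samples as a point and their range as a bar, coloured by condition. Parp3 is the highest at 23.8 and Nmnat3 the lowest at 0.314 in si Ctrl, and the range of Nmrk2 is wide in every condition.

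Among the PARP genes, Parp1 (chr1:180568924-180601254, plus strand), whose enzyme senses DNA breaks and makes most of the poly(ADP-ribose) of the cell, was at 85.3, 88.0 and 102 CPM in the si Ctrl replicates 1, 2 and 3. In si mH2A1.1 it was at 99.5, 76.4 and 85.8 CPM, and in si mH2A1.2 at 74.2, 78.3 and 83.9 CPM. The si mH2A1.1 samples overlapped the si Ctrl range, whereas the si mH2A1.2 samples all lay just below the lowest si Ctrl sample. The log2 fold change was -0.07 in si mH2A1.1 (95% interval -0.33 to 0.18, adjusted p = 0.718) and -0.22 in si mH2A1.2 (-0.47 to 0.038, adjusted p = 0.404), so that neither passed and a fall of more than 0.33 or 0.47 lay outside the intervals. Between the knockdowns it was 0.15 (-0.11 to 0.40, adjusted p = 0.397).

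Parp2 (chr14:50807841-50821301, plus strand), the close relative of Parp1 that also acts on DNA breaks, had the narrowest intervals of the 10 genes. It was at 35.5, 32.2 and 34.4 CPM in si Ctrl, at 33.2, 31.5 and 31.5 CPM in si mH2A1.1 and at 36.6, 30.8 and 32.3 CPM in si mH2A1.2. All 3 conditions overlapped. Its log2 fold changes were -0.09 in si mH2A1.1 (95% interval -0.30 to 0.13) and -0.04 in si mH2A1.2 (-0.25 to 0.18).

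Parp3 (chr9:106470322-106476949, minus strand), a mono-ADP-ribosyltransferase with a part in double-strand break repair, was at 101, 81.3 and 81.4 CPM in si Ctrl, at 96.0, 88.1 and 81.4 CPM in si mH2A1.1 and at 96.5, 76.5 and 70.0 CPM in si mH2A1.2. Replicate 1 was the highest sample of each condition, as it was for Parp2, and the conditions overlapped. The log2 fold change was 0.0084 in si mH2A1.1 (95% interval -0.30 to 0.31) and -0.12 in si mH2A1.2 (-0.42 to 0.18).

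Parp4 (chr14:56575619-56659794, plus strand), the PARP of the vault particle, was at 80.1, 70.1 and 59.5 CPM in si Ctrl, at 62.6, 82.0 and 64.6 CPM in si mH2A1.1 and at 76.8, 69.1 and 60.4 CPM in si mH2A1.2. The means of the conditions, 69.9 ± 10.3, 69.7 ± 10.6 and 68.8 ± 8.21 CPM (SD, n = 3), were closer to each other than the samples within any condition. Its log2 fold changes were -0.0034 (95% interval -0.32 to 0.32) in si mH2A1.1, -0.02 (-0.34 to 0.30) with si mH2A1.2 and 0.02 (-0.30 to 0.34) between the knockdowns.

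**Figure D3:**
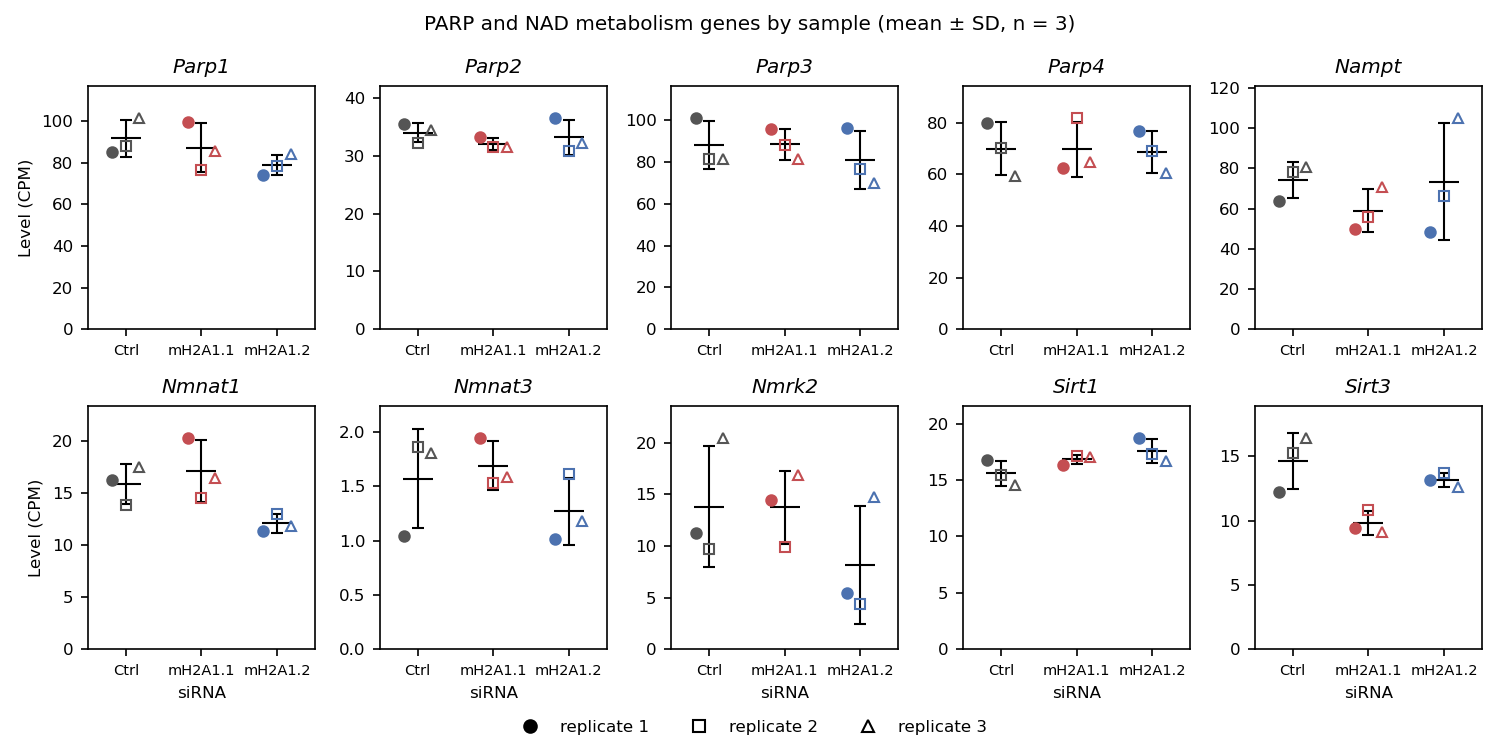
Level in CPM (vertical axes from 0) of each of the 10 genes in the 9 samples, grouped along the horizontal axis by siRNA, with the replicate number as the symbol and the mean ± SD of 3 samples as black bars. The si mH2A1.1 samples of Sirt3 (9.12 to 10.9) lie below all others, the si mH2A1.2 samples of Nmnat1 (11.3 to 13.0) lie below all others, and replicate 3 is the highest sample of each condition for Nampt and Nmrk2.

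The promoter of Parp4 is shown because several other PARP genes moved with interferon-response genes in these samples. Of the 12 RefSeq promoter windows of the 10 genes (GRCm38.p6, 250 bases before each start), only that of Parp4 held the interferon-stimulated response element core GAAANNGAAA, searched on both strands. It held 2 overlapping matches, at -150 and -144 from the start, and 2.98% of all 32851 windows held at least 1. The sequence is given from chr14:56575426-56575618 on the plus strand, which are the 193 bases before the start that lie in no annotated exon, with both matches in capitals.
Parp4: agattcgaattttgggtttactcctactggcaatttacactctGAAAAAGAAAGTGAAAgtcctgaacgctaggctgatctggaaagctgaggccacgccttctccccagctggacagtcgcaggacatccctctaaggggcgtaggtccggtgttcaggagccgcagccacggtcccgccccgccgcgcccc
Interferon-response genes rose with si mH2A1.1, 12 of 12 called higher than si Ctrl, beside 6.18% of all tested genes. This list was chosen with earlier results of these data known, so that its count is a description only. The summed level of its genes was 59.9 to 73.3 CPM in si Ctrl, 206 to 637 CPM in si mH2A1.1 and 63.1 to 88.5 CPM in si mH2A1.2. Parp4 itself was not called, with the values above. The windows of Parp12 and Dtx3l, which rose with si mH2A1.1, held no match, and Parp9, Parp10 and Parp14 had no window. In the wider pathway, 45 genes had a window, and of these Parp11, Xrcc1 and Rnf146 each had a window with a match. A match of these letters is a description and not evidence of binding. The E-box CAGCTG, the letters that myogenic factors bind, was found in 3 of the 12 windows of the 10 genes (those of Parp3, Nampt and Parp4) and in 13.0% of all windows.

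Of the NAD synthesis genes, Nampt (chr12:32819545-32853349, plus strand), which encodes the rate-limiting enzyme of nicotinamide salvage, was at 63.8, 78.0 and 80.6 CPM in si Ctrl, at 50.0, 55.9 and 70.8 CPM in si mH2A1.1 and at 48.5, 66.3 and 105 CPM in si mH2A1.2. In each condition replicate 1 was the lowest and replicate 3 the highest sample, and the spread within si mH2A1.2 (SD 28.9 CPM) exceeded any difference between the means. The log2 fold change was -0.33 in si mH2A1.1 (95% interval -0.87 to 0.21, adjusted p = 0.393) and -0.02 in si mH2A1.2 (-0.55 to 0.52, adjusted p = 0.985).

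Nmnat1 (chr4:149467572-149485202, minus strand), the nuclear enzyme that completes NAD from nicotinamide mononucleotide, was at 16.2, 13.8 and 17.5 CPM in si Ctrl and at 20.3, 14.5 and 16.4 CPM in si mH2A1.1. In si mH2A1.2 it was at 11.3, 13.0 and 11.9 CPM. The si mH2A1.2 samples were lower than every sample of the other conditions, and si Ctrl and si mH2A1.1 overlapped. Nmnat1 was higher in si mH2A1.1 than in si mH2A1.2 by 0.50 on the log2 scale (SE 0.15, 95% interval 0.17 to 0.83, adjusted p = 0.0363), that is 1.41-fold. Against si Ctrl, the log2 fold change was 0.11 in si mH2A1.1 (-0.22 to 0.43, adjusted p = 0.672) and -0.39 in si mH2A1.2 (-0.72 to -0.064, unadjusted p = 0.0238, adjusted p = 0.224). The call between the knockdowns was lost with only the samples of both conditions (adjusted p = 0.0531) and in 6 of 9 fits without a single sample. The adjusted p was 0.0501 without si Ctrl replicate 1, 0.128 and 0.0724 without si mH2A1.1 replicates 1 and 3, and 0.0838, 0.0680 and 0.0930 without si mH2A1.2 replicates 1, 2 and 3.

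Nmnat3 (chr9:98287435-98420438, plus strand), the mitochondrial counterpart of Nmnat1, was the least abundant of the 10 genes, with 37 to 79 counts per sample. It was at 1.04, 1.87 and 1.80 CPM in si Ctrl, at 1.95, 1.53 and 1.59 CPM in si mH2A1.1 and at 1.02, 1.62 and 1.18 CPM in si mH2A1.2. The conditions overlapped, and its log2 fold changes were 0.10 (95% interval -0.51 to 0.72) in si mH2A1.1 and -0.30 (-0.92 to 0.32) with si mH2A1.2.

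Nmrk2 (chr10:81198170-81202051, minus strand), a nicotinamide riboside kinase typical of muscle, varied most between samples of the same condition. It was at 11.2, 9.67 and 20.5 CPM in si Ctrl, at 14.5, 9.88 and 16.9 CPM in si mH2A1.1 and at 5.40, 4.41 and 14.8 CPM in si mH2A1.2. Replicate 2 was the lowest and replicate 3 the highest sample of each condition, and si mH2A1.2 replicates 1 and 2 were lower than all other samples. The log2 fold change was -0.75 in si mH2A1.2 (95% interval -1.73 to 0.23, adjusted p = 0.452, and 0.0603 with the replicate block) and -0.0053 with si mH2A1.1 (-0.97 to 0.96, adjusted p = 0.994). Between the knockdowns it was 0.75 (-0.23 to 1.73, adjusted p = 0.252), which passed with the replicate block (0.91, adjusted p = 0.0144). Over all tested genes, deviations of same-numbered samples of the knockdowns correlated by 0.0917 to 0.116, and those of differently numbered samples by -0.0961 to -0.0122. Without si mH2A1.2 replicate 3 the Nmrk2 value between the knockdowns became 1.49 and passed (adjusted p = 0.0232), and that of si mH2A1.2 against si Ctrl became -1.49 (adjusted p = 0.0839).

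Nmrk2 shares 270 exonic bases with the antisense gene Atcayos, and without strand, which the sources used here do not state for the counting, their reads cannot be told apart there. Atcayos was at 7.87, 11.0 and 11.2 CPM in si Ctrl, at 6.77, 7.78 and 6.57 CPM in si mH2A1.1 and at 3.91, 4.72 and 4.62 CPM in si mH2A1.2. It fell with si mH2A1.2 by 1.19 on the log2 scale (SE 0.17, adjusted p = 0.0131). The part of shared reads in the Nmrk2 values was not tested.

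Of the sirtuins, Sirt1 (chr10:63319005-63381704, minus strand), the nuclear deacetylase, was at 16.8, 15.5 and 14.6 CPM in si Ctrl, at 16.3, 17.1 and 17.0 CPM in si mH2A1.1 and at 18.8, 17.3 and 16.7 CPM in si mH2A1.2. The conditions overlapped by their nearest samples. The log2 fold change was 0.11 in si mH2A1.1 (95% interval -0.12 to 0.34, adjusted p = 0.525) and 0.17 in si mH2A1.2 (-0.060 to 0.40, adjusted p = 0.470).

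Sirt3 (chr7:140863666-140882309, minus strand), the main mitochondrial deacetylase, was the only one of the 10 genes that passed the test against si Ctrl. It was at 12.2, 15.3 and 16.5 CPM in si Ctrl and at 13.2, 13.7 and 12.6 CPM in si mH2A1.2, whereas it was at 9.41, 10.9 and 9.12 CPM in si mH2A1.1. Every si mH2A1.1 sample was lower than every sample of the other conditions, which overlapped with each other. Sirt3 fell with si mH2A1.1 by 0.58 on the log2 scale (SE 0.14, 95% interval -0.88 to -0.28, adjusted p = 0.0269), to 0.669 of its si Ctrl level. The value for si mH2A1.2 was -0.15 (-0.46 to 0.15, adjusted p = 0.654). The difference between the knockdowns, which is the test of whether they differ, was -0.43 (SE 0.14, -0.73 to -0.12, adjusted p = 0.0481).

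The Sirt3 difference against si Ctrl passed 0.05 under every other setting of normalization, filter, test and block, with adjusted p from 0.00257 to 0.0462, but not in each fit without a single sample. It did not pass without si Ctrl replicate 2 (adjusted p = 0.0932), si Ctrl replicate 3 (0.0856), si mH2A1.1 replicate 1 (0.0880) or si mH2A1.1 replicate 3 (0.0974), with log2 fold changes from -0.55 to -0.50 there. In these 4 fits 605 to 810 of all genes passed, beside 2171 with all samples. Between the knockdowns the Sirt3 call was lost with no filter on low counts, with limma-voom and with only the samples of both conditions (adjusted p of at most 0.0800), and it remained in 2 of 9 such fits, those without si Ctrl replicate 1 (adjusted p = 0.0331) and without si mH2A1.1 replicate 2 (0.0384). It was lost without si Ctrl replicates 2 and 3 (0.0648 and 0.0513), without si mH2A1.1 replicates 1 and 3 (0.122 and 0.143) and without si mH2A1.2 replicates 1, 2 and 3 (0.0806, 0.139 and 0.0824).

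Sirt3 shares 418 exonic bases with Ric8a and 342 with Psmd13, both on the opposite strand and both more abundant. Ric8a was at 77.0 to 85.8 CPM in si Ctrl, 77.6 to 90.0 CPM in si mH2A1.1 and 66.3 to 77.6 CPM in si mH2A1.2, and Psmd13 at 70.3 to 84.8, 73.7 to 96.7 and 66.4 to 82.3 CPM. Their log2 fold changes with si mH2A1.1 were 0.04 (95% interval -0.18 to 0.25) and 0.16 (-0.12 to 0.45), with sign opposite to that of Sirt3. How the reads of the shared bases were divided was not tested.

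Genes of several cell-type and cell-state lists moved in the same comparisons as Sirt3 and Nmnat1. Among all tested genes, 6.18% were called higher and 4.93% lower with si mH2A1.1, and 1.37% and 0.982% with si mH2A1.2. Between the knockdowns, 12.0% were called higher and 10.5% lower in si mH2A1.1. Besides the interferon-response genes, the summed level of 11 cell-cycle genes was 397 to 585 CPM in si Ctrl, 528 to 1113 in si mH2A1.1 and 314 to 443 in si mH2A1.2, and 2 of 11 rose with si mH2A1.1 and 10 of 11 were higher in si mH2A1.1 than in si mH2A1.2. The 9 fibroblast or matrix genes summed to 12722 to 15719 CPM in si Ctrl, 4941 to 8423 in si mH2A1.1 and 20359 to 28722 in si mH2A1.2, and with si mH2A1.1 5 of them fell and 1, Fap, rose. Between the knockdowns 5 were lower and 1 was higher in si mH2A1.1. Most of this sum came from Col3a1, Col1a1 and Col1a2 (means of 8596, 2945 and 2400 CPM in si Ctrl). The paper places Col1a1 among the most expressed genes of C2C12 myotubes, so the sum is not a measure of fibroblasts. The 19 myotube genes summed to 23427 to 35508 CPM, 22542 to 27164 CPM and 19208 to 25052 CPM, and with si mH2A1.1 2 rose and 2 fell, while with si mH2A1.2 3 fell. Of these, 7 were higher and 1 was lower in si mH2A1.1 than in si mH2A1.2. The 9 genes of undifferentiated or reserve cells overlapped, at 524 to 682, 553 to 831 and 527 to 862 CPM, with 1 called higher with si mH2A1.1 and 1 called lower with si mH2A1.2, but between the knockdowns 4 were higher and 4 lower in si mH2A1.1, in opposite directions within the sum. Of the adipocyte genes, Adipoq, Lep and Cidec were at 3 counts or fewer in every sample, as were Cd3e and Adgre1 of the immune list. The 6 immune genes summed to 3.88 to 4.82 CPM in si Ctrl and 6.97 to 12.6 in si mH2A1.1, where Cd68 rose, and the 6 adipocyte genes to at most 6.69 CPM in any sample. In such cultures, fewer cells of a type and less RNA per cell cannot be told apart, and the part of these genes' cell states in the Sirt3 and Nmnat1 values was not tested.

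The genes whose levels ran most like those of Sirt3 and Nmnat1 over the 9 samples were searched among 14381 genes with a mean of at least 1 CPM. For Sirt3 these were Spg20, which encodes spartin (Pearson r = 0.973 of log2 CPM), the lincRNA Gm37800 (0.963) and the antisense gene Chrna1os (0.960). For Nmnat1 they were Sart1 (0.965), Mrps5 (0.961) and Fn3krp (0.961). These are the highest of many correlations over 9 samples in 3 conditions and serve as a description only.

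In the wider pathway, more PARP genes passed the test. Of 12 other family members, 4 rose and 2 fell with si mH2A1.1, 0 passed with si mH2A1.2 in edgeR, DESeq2 and limma-voom (2, Parp8 and Parp14, had an unadjusted p under 0.05 in edgeR), and 4 were higher and 3 lower in si mH2A1.1 than in si mH2A1.2. Among all tested genes in edgeR, 6.18% were higher and 4.93% lower with si mH2A1.1, and 2.35% passed with si mH2A1.2. Between the knockdowns, 12.0% of all tested genes were higher and 10.5% lower in si mH2A1.1. Parp14, Parp9, Parp12 and Parp10, known as interferon-inducible mono-ADP-ribosyltransferases or, for Parp9, a partner of the ubiquitin ligase Dtx3l, were the 4 that rose. The list's median log2 fold change with si mH2A1.1 was 0.21, from -0.64 to 2.90, beside -0.0091 for all tested genes. DESeq2 also called Parp11 with si mH2A1.1 (adjusted p = 0.0461, and 0.0865 in edgeR), at a log2 fold change of 0.46.

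Parp14 was at 3.48, 4.16 and 3.92 CPM in si Ctrl, at 7.02, 6.47 and 5.77 CPM in si mH2A1.2 and at 25.1, 15.2 and 46.0 CPM in si mH2A1.1. The si mH2A1.1 samples were all higher than the others and spread widely among themselves, with replicate 3 the highest and replicate 2 the lowest, as they also were for Parp9, Parp10 and Parp12. Parp14 rose with si mH2A1.1 by 2.90 on the log2 scale (SE 0.34, adjusted p = 0.00236), while the si mH2A1.2 samples differed from si Ctrl by 0.74 (SE 0.33, adjusted p = 0.313). Parp9 rose by 1.66 (SE 0.27, adjusted p = 0.00645), Parp12 by 1.43 (SE 0.24, adjusted p = 0.00738) and Parp10 by 0.89 (SE 0.20, adjusted p = 0.0209). Parp6 and Parp16, of which the second sits in the endoplasmic reticulum, fell with si mH2A1.1 by 0.57 (SE 0.16, adjusted p = 0.0468) and 0.64 (SE 0.17, adjusted p = 0.0371). The tankyrase gene Tnks was lower in si mH2A1.1 than in si mH2A1.2 by a log2 fold change of -0.36 (SE 0.11, adjusted p = 0.0410). The Parp6, Parp10 and Parp16 calls against si Ctrl were each lost in several fits without a single sample, as was that of Tnks, whereas those of Parp9, Parp12 and Parp14 remained in 9 of 9. The Parp6 call was also lost with limma-voom (adjusted p = 0.0517) and that of Parp16 with only the samples of both conditions (0.0588). Between the knockdowns, Parp6 and Parp16 were lower in si mH2A1.1, with log2 fold changes of -0.75 (SE 0.16, adjusted p = 0.00892) and -0.83 (SE 0.17, adjusted p = 0.00740). Both of these calls remained in 9 of 9 such fits.

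**Figure D4:**
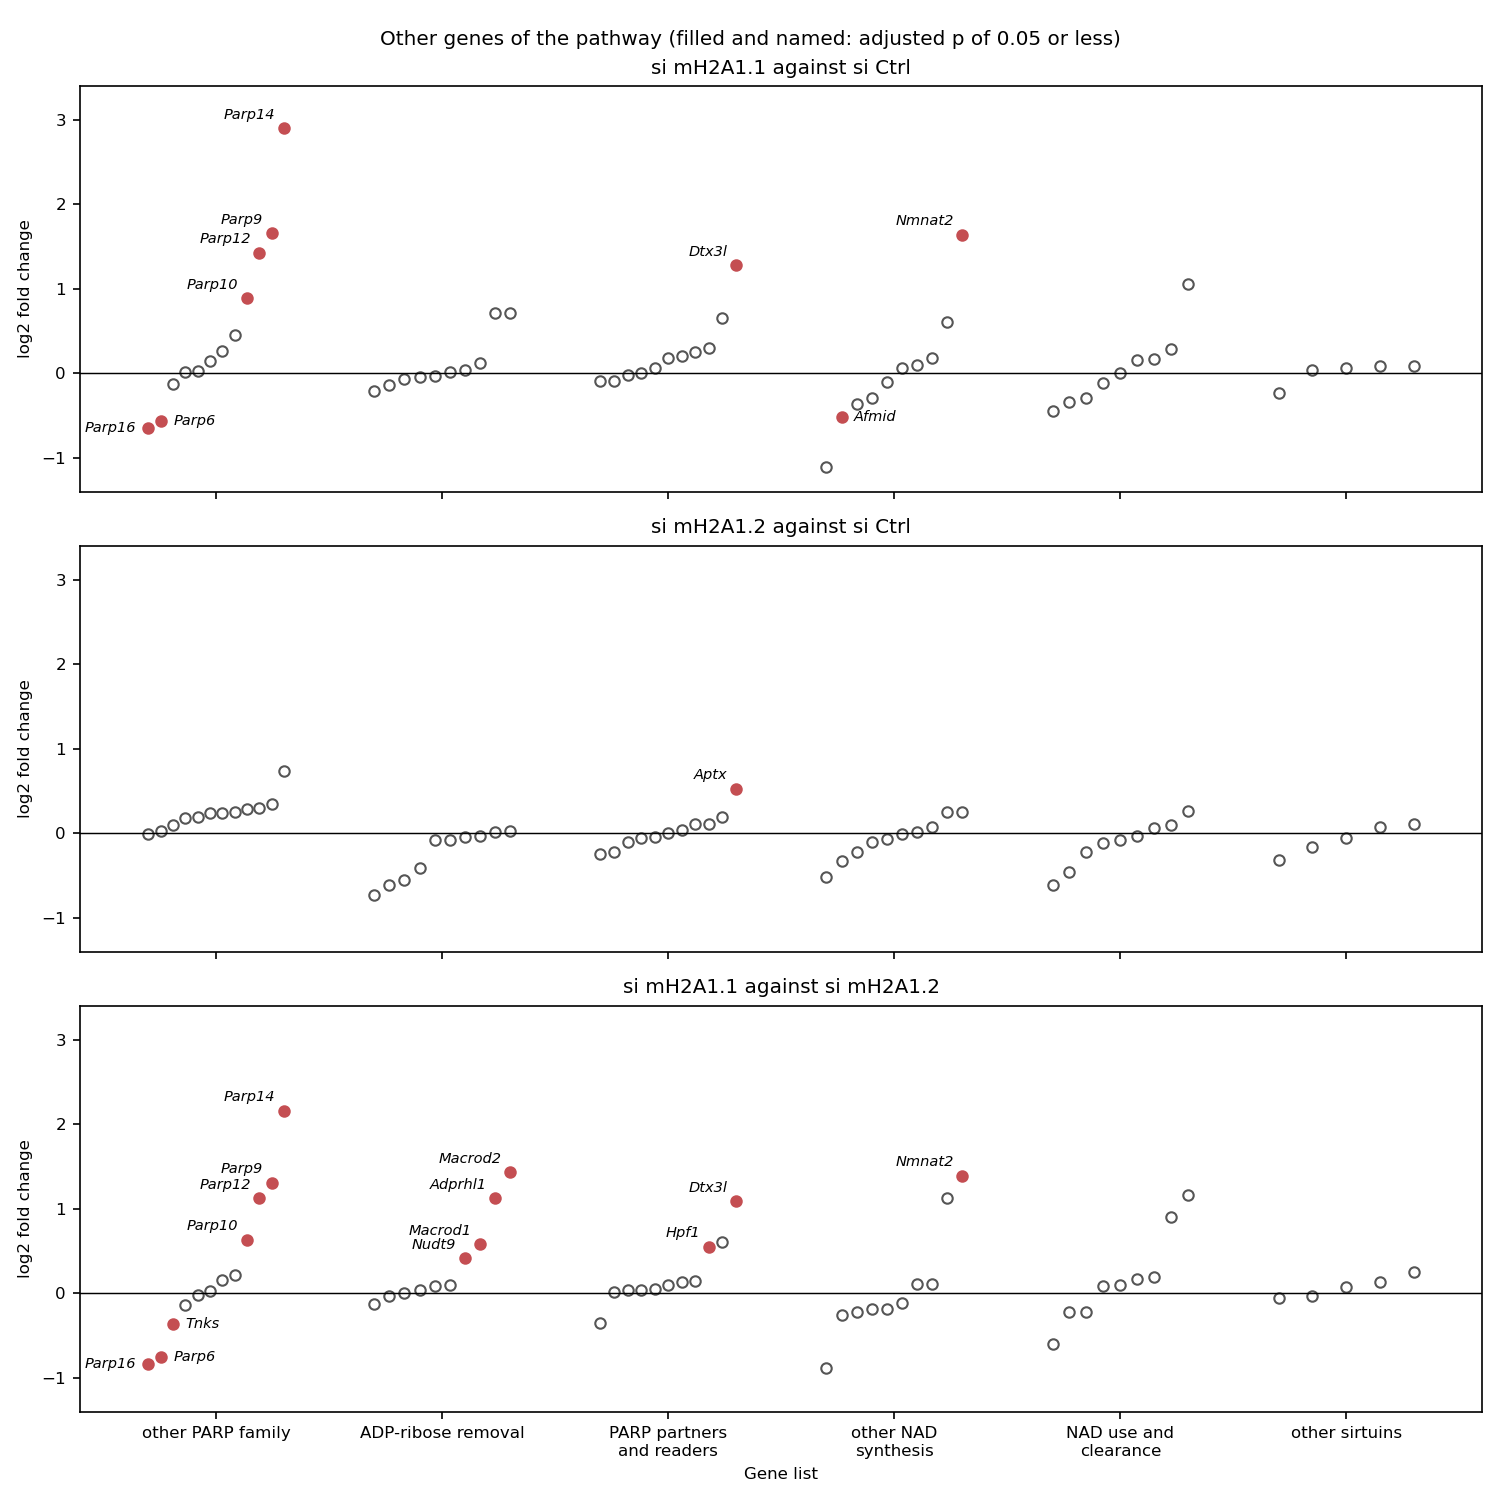
Log2 fold change (vertical axis) of the genes of 6 lists of the wider pathway (horizontal axis), sorted within each list, in 1 panel for each comparison. Filled and named points passed an adjusted p of 0.05 or less, and Parp14 is the highest at 2.90 in the first panel, where the sirtuin list stays near 0.

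In a list of genes related to ADP-ribose removal or breakdown, 0 of 10 passed against si Ctrl for either knockdown in edgeR without the replicate block. This stood beside 11.1% and 2.35% of all tested genes. The list includes the hydrolase-like gene Adprhl1 and the pyrophosphatase gene Nudt9, so removal of ADP-ribose from proteins is not implied for each gene. Between the knockdowns, 4 of 10 were higher in si mH2A1.1 than in si mH2A1.2, beside 12.0% of all tested genes. The unadjusted p in edgeR was under 0.05 for 1 gene with si mH2A1.1 (Adprhl1) and for 2 with si mH2A1.2 (Macrod1 and Nudt9), which are also the genes that DESeq2 called, while limma-voom called 0. With the replicate block, Macrod1 (-0.63, adjusted p = 0.0153) and Nudt9 (-0.55, adjusted p = 0.0487) passed with si mH2A1.2. Adprhl1, an ADP-ribosylhydrolase-like gene of heart and muscle, was at 9.31, 15.1 and 16.0 CPM in si mH2A1.1 and at 6.22, 5.92 and 6.39 CPM in si mH2A1.2, beside 7.01, 6.93 and 10.7 CPM in si Ctrl. It was higher by 1.13 on the log2 scale (SE 0.23, adjusted p = 0.00784). The macrodomain hydrolases Macrod1 and Macrod2 were higher by 0.58 (SE 0.16, adjusted p = 0.0274) and 1.44 (SE 0.36, adjusted p = 0.0186), where Macrod2 stayed below 1 CPM in every sample. Nudt9, an ADP-ribose pyrophosphatase, was higher by 0.42 (SE 0.13, adjusted p = 0.0433). The Nudt9 call remained in 2 of 9 fits without a single sample and was lost with no filter on low counts and with only the samples of both conditions. The Macrod1 call remained in 4 of 9 such fits, that of Macrod2 in 5 of 9 and that of Adprhl1 in 9 of 9. Parg, the main enzyme that degrades poly(ADP-ribose), was at 43.3 to 52.4 CPM over the 9 samples and did not pass in any comparison, with log2 fold changes of 0.13, 0.03 and 0.10.

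Of 11 partners and readers of PARP activity, 1 rose with each knockdown and 2 were higher in si mH2A1.1 than in si mH2A1.2, beside 6.18%, 1.37% and 12.0% of all tested genes that were higher. DESeq2 also called Chd1l, an ADP-ribose-binding chromatin remodeller, with si mH2A1.1 (adjusted p = 0.0262) and between the knockdowns (0.0301), where edgeR gave log2 fold changes of 0.65 (adjusted p = 0.0676) and 0.61 (0.0582), and it called Aptx between the knockdowns (0.0480). Dtx3l rose with si mH2A1.1 by 1.28 (SE 0.22, adjusted p = 0.00750), from 12.6, 14.7 and 15.2 CPM to 29.5, 24.9 and 48.6 CPM. Hpf1, the cofactor that directs PARP1 and PARP2 to serine residues, was at 31.4, 26.3 and 25.8 CPM in si Ctrl, 39.0, 29.1 and 34.8 CPM in si mH2A1.1 and 22.6, 22.2 and 25.4 CPM in si mH2A1.2, and was higher in si mH2A1.1 than in si mH2A1.2 by 0.55 (SE 0.13, adjusted p = 0.0147). Aptx, which repairs abortive ligation ends, rose with si mH2A1.2 by 0.53 (SE 0.12, adjusted p = 0.0496), a call that 8 of 9 fits without a single sample lost. The Aptx call was also lost with DESeq2 size factors, upper-quartile scaling, no filter on low counts, limma-voom and only the samples of both conditions (adjusted p of at most 0.0629). Xrcc1, Lig3 and Polb, which act in single-strand break repair, did not pass in any comparison.

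Of the 14 other NAD synthesis genes, 10 were tested, and Ido1, Ido2, Tdo2 and Haao of the tryptophan route fell below the filter. Nmnat2, the cytosolic counterpart of Nmnat1 known from neurons, was at 3.80, 4.21 and 3.30 CPM in si Ctrl, at 13.7, 9.76 and 11.9 CPM in si mH2A1.1 and at 5.26, 5.06 and 3.12 CPM in si mH2A1.2. The si mH2A1.1 samples were all higher than the others. Nmnat2 rose with si mH2A1.1 by 1.64 on the log2 scale (SE 0.22, adjusted p = 0.00355) and was higher there than in si mH2A1.2 by 1.39 (SE 0.22, adjusted p = 0.00219), in contrast to Nmnat1 and Nmnat3, which did not pass against si Ctrl. Afmid, of the tryptophan route, fell with si mH2A1.1 by 0.51 (SE 0.13, adjusted p = 0.0382), a call that 6 of 9 fits without a single sample lost, as did the fit with no filter on low counts. Nt5e, which encodes an nucleotidase of the cell surface, had a log2 fold change of -1.10 with si mH2A1.1 (SE 0.37, adjusted p = 0.0810) and was called there by DESeq2 (adjusted p = 0.0194). With si mH2A1.2, 0 of the 10 passed in edgeR, DESeq2 or limma-voom, beside 2.35% of all tested genes in edgeR, and 1, Afmid, had an unadjusted p under 0.05.

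Genes that use, phosphorylate or clear NAD and nicotinamide did not pass in edgeR without the replicate block in any comparison. In this list 0 of 9 tested genes passed, beside 11.1%, 2.35% and 22.5% of all tested genes, while Cd38 and Bst1 fell below the filter. The unadjusted p was under 0.05 for 2 of them against si Ctrl in si mH2A1.1, for 0 in si mH2A1.2, and for 2 between the knockdowns, and DESeq2 called Nudt13 in the first of these comparisons and Nnmt in the third, where limma-voom called 1 gene. In this list Nnmt, which methylates nicotinamide, had the largest log2 fold change with si mH2A1.1, 1.06 (SE 0.40, adjusted p = 0.109), at 1.04 to 1.25 CPM in si Ctrl and 2.05 to 2.72 CPM in si mH2A1.1. Nnt is annotated as 2 overlapping genes of the same name, whose reads are uncertain. Of the 5 other sirtuin genes, 0 passed in any comparison in edgeR, DESeq2 or limma-voom and 0 had an unadjusted p under 0.05 in edgeR, and their log2 fold changes ranged from -0.24 to 0.09 with si mH2A1.1 and from -0.31 to 0.11 with si mH2A1.2, the mitochondrial sirtuin genes Sirt4 and Sirt5 among them.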

How the data were processed

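mRNA was sequenced by the authors as single 50 bp reads and quantified with Salmon on mm10, per the labels. The deposited table holds expected counts per gene as whole numbers, without normalization. The strand setting and annotation release are not given in the sources used here. Names, positions and exon lengths came from GENCODE M21, which names 52762 of the 52780 genes. A table of normalized values was not used.

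Counts were tested in R 4.3.3 with edgeR 4.0.16 (quasi-likelihood, legacy form, TMM, filterByExpr, Benjamini-Hochberg adjustment over 19545 genes, 9 samples in 1 model without a replicate term). CPM use TMM library sizes. Intervals are 95% t intervals from the fitted change and its SE. The fits were checked on simulated data. All 10 genes, every called gene of 6 pathway lists (at most 8 each), and the 3 genes most correlated with each called member were named. The genes and lists were chosen with earlier results of these data known. Totals of 36924252 to 42223108 counts put the floor of 3 counts at 0.0711 to 0.0813 CPM. Intervals and floors do not cover variation beyond these samples, and PCR copies cannot be told from molecules.

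Deviations of same-numbered si mH2A1.2 and si Ctrl samples correlated by 0.196 to 0.331, and of differently numbered ones by -0.267 to 0.0358. In the other comparisons all same-numbered correlations were positive, though smaller, and all others were negative. Deviations were taken from the mean of each condition. Positive same-numbered values therefore make the others negative on average, which is no separate evidence of pairing. From the same-numbered values, the replicate numbers were taken as a possible pairing, which the main model does not include. The labels state no pairing, but the numbers in the sample descriptions are consecutive across the conditions within each replicate number. Alternatives were DESeq2 1.42.0, limma-voom (limma 3.58.1), DESeq2 size factors, upper-quartile scaling, other filters, a newer edgeR form, a replicate block, only the samples of both conditions, a stricter cutoff (adjusted p below 0.01 and absolute log2 change of 0.8 or more) and leaving out each sample.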

Additional observations from a re-analysis of the deposited data

How the results depend on the processing

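Of the log2 fold changes of a part of the single genes, 489 of 512 kept their direction and side of the threshold under settings other than leaving out a sample, and 408 of 513 did so without a sample. These counts do not cover all genes of the pathway lists, and the calls that the replicate block added there, given below, are outside them. Between the knockdowns, 2 of the 10 genes passed, but 1 passed with no filter on low counts or with limma-voom and 0 with only the samples of both conditions. At the stricter cutoff (adjusted p under 0.01 and a log2 change of 0.8 or more in size), 0 of the 10 passed in any comparison, and of all genes 352 passed for si mH2A1.1, 35 for si mH2A1.2 and 1247 between the knockdowns. DESeq2 called 3354 genes for si mH2A1.1. For si mH2A1.2 it called 1096, H2afy among them (adjusted p = 0.0406).

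With the replicate block, 4065, 1005 and 5674 genes passed in the 3 comparisons, and 1, 0 and 3 of the 10, the third being Nmrk2 between the knockdowns (0.91, adjusted p = 0.0144). The block changed no other call of the 10 genes. In the pathway lists it added Parp11, Adprhl1, Chd1l, Nt5e and Nudt13 with si mH2A1.1, Macrod1 and Nudt9 with si mH2A1.2, and Aptx, Chd1l, Nt5e, Nadk2 and Nnmt between the knockdowns, and it removed none. Same-numbered samples correlated by 0.0841 to 0.0976 between si mH2A1.1 and si Ctrl, and by 0.0917 to 0.116 between the knockdowns. Differently numbered samples correlated by -0.0739 to -0.0213 and by -0.0961 to -0.0122 in these comparisons. Signs turned with the block for Parp4 (0.0024) and Nmrk2 (0.0569) and with limma-voom for Nmrk2 (0.0394), all with si mH2A1.1.

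Without a single sample, 0 to 1 of the 10 passed for si mH2A1.1, 0 in each fit for si mH2A1.2, and 0 to 2 between the knockdowns. All-gene counts ran from 605 to 2928, from 74 to 544 and from 2251 to 4616. They fell by more than 1.5 times with si mH2A1.1 without si Ctrl replicates 2 and 3 (605 and 810) and si mH2A1.1 replicates 1 and 3 (689 and 666). With si mH2A1.2 they did without si Ctrl replicates 1, 2 and 3 (74, 267 and 99), si mH2A1.1 replicate 3 (231) and si mH2A1.2 replicates 1, 2 and 3 (91, 81 and 240). Between the knockdowns they did without si mH2A1.1 replicates 1 and 3 (2405 and 2764) and si mH2A1.2 replicate 2 (2251). Some small fold changes turned sign. With si mH2A1.1 these ran from -0.17 to 0.014 for Parp1, -0.056 to 0.12 for Parp3, -0.14 to 0.10 for Parp4, -0.031 to 0.21 for Nmnat1, -0.12 to 0.24 for Nmnat3 and -0.21 to 0.39 for Nmrk2. With si mH2A1.2 they ran from -0.11 to 0.014 for Parp2, -0.13 to 0.087 for Parp4 and -0.37 to 0.20 for Nampt. Between the knockdowns they ran from -0.11 to 0.024 for Parp2, -0.12 to 0.10 for Parp4 and -0.54 to 0.034 for Nampt. The cause of these changes was not tested. Nmnat3 had the fewest counts of the 10 genes, 37 to 79 per sample.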
